A study of Homo sapiens with 8 samples.

Results

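ETS1 and 9 further genes of the ETS family of transcription factors (ETS2, ERG, FLI1, ETV1, ETV4, ETV5, ELF1, ELK3 and SPIC) were followed in NTera2/D1 cells treated with retinoic acid (RA). The 10 genes were taken by their symbol on the array platform, from 18732 genes with a value. ETS1 was chosen by measured values, for its strong decrease with RA in these same arrays, so its RA response, and the difference of that response between the backgrounds, are given as a description with no test. The 9 others were listed with results of these data known, and their counts are no independent evidence.

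ETS proteins bind DNA through a conserved winged helix, the ETS domain, which recognises sites built around the letters GGAA. Many of them receive signals from the RAS and ERK kinase pathway: ETS1 and ETS2 are phosphorylated by ERK next to their Pointed domain, the ETV1, ETV4 and ETV5 group (the PEA3 group) is induced by FGF signals, and ELK3 belongs to the ternary complex factors that act with SRF. ERG and FLI1 are known from endothelial and blood cells, SPIC from macrophages, and ELF1 from lymphoid and many other cells.

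NTera2/D1 is a clonal human embryonal carcinoma line, in which RA starts differentiation and ends the stem-like state. Cells carried a small interfering RNA against LacZ, a bacterial gene that serves as the control (siLacZ), or against RNF20, the ligase that puts ubiquitin on histone H2B (siRNF20). They received the solvent DMSO or 10 µM RA, for 72 h, which gave the groups DMSO siLacZ, RA siLacZ, DMSO siRNF20 and RA siRNF20. Each group held 2 Affymetrix exon arrays, numbered GF117 and GF120 and described in the labels as biological duplicates of this one line.

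The GF117 array of RA siLacZ stood apart, with Pearson correlations of 0.135 to 0.239 to the others over all genes, against 0.908 to 0.975 among the other 7. It was left out of the fit, so RA siLacZ is represented by its GF120 array, whose spread is taken from the other groups. Values with all 8 arrays are given where they matter. RNF20, the targeted gene, measured 8.24 and 8.09 in DMSO siLacZ and 8.10 on the GF120 array of RA siLacZ, against 6.48 and 5.98 in DMSO siRNF20 and 6.27 and 5.89 in RA siRNF20. These and all gene values below are medians of log2 intensity over the array rows (probe sets) kept for a gene. RNF20 was lower by 1.94 in DMSO and by 2.02 in RA on the log2 scale, which did not pass the test over all genes (limma, adjusted p = 0.237 and 0.110). In DMSO its unadjusted p was 1.3e-05 (limma), and its change was the lowest of all 18732 genes. On the array that stood apart RNF20 measured 6.08, within the range of the siRNF20 arrays. ELF1 (4.19) and ELK3 (3.25) were also low there, so that value cannot be read as depletion. The stem cell markers of the labelled line were bright, with a summed intensity of 10 genes between 11371 and 12072 on the 4 DMSO arrays and between 6925 and 9177 on the 3 RA arrays.

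ETS1 was high in both DMSO groups and near the level of a typical array row in both RA groups. It measured 7.67 (GF117) and 6.97 (GF120) in DMSO siLacZ and 3.89 (GF120) in RA siLacZ. In DMSO siRNF20 it measured 7.72 and 6.64, and in RA siRNF20 4.13 and 3.74. The 3 RA arrays lay below the 4 DMSO arrays. On the array that stood apart ETS1 measured 3.75, but ELF1 (4.19) and ELK3 (3.25) were also low there, so that value says nothing of RA. ETS1 was 10.8-fold lower with RA in siLacZ cells (log2 change -3.43, SE 0.46) and 9.46-fold lower in siRNF20 cells (-3.24, SE 0.38). It had the 5th lowest log2 change of 18732 genes in siLacZ cells and likewise the 5th lowest in siRNF20 cells. Within GF120 the change was -3.08 in siLacZ and -2.90 in siRNF20 cells, and within GF117 it was -3.58 in siRNF20 cells. In bulk RNA fewer cells with a transcript and less of it per cell cannot be told apart.

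The decrease ran across the rows kept for ETS1. Of its 22 rows 19 were bright enough to be kept, and all 19 were lower with RA in both backgrounds. Rows were kept by their mean over DMSO and RA arrays together, so a row bright only with DMSO could pass. ETS1 was also chosen for its decrease, so this count is no separate evidence of it. The 3 dropped rows had median changes of -0.54 in siLacZ and 0.35 in siRNF20 cells. The log2 changes of the 19 kept rows ran from -5.88 to -1.31 in siLacZ cells and from -6.17 to -0.43 in siRNF20 cells. Of them 19 and 18 exceeded a halving. RA levels of ETS1 were close to the median row of an array (log2 4.11), where background holds part of the signal. With 16 intensity units added before the logarithm the changes were -2.52 and -2.37.

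**Figure D1:**
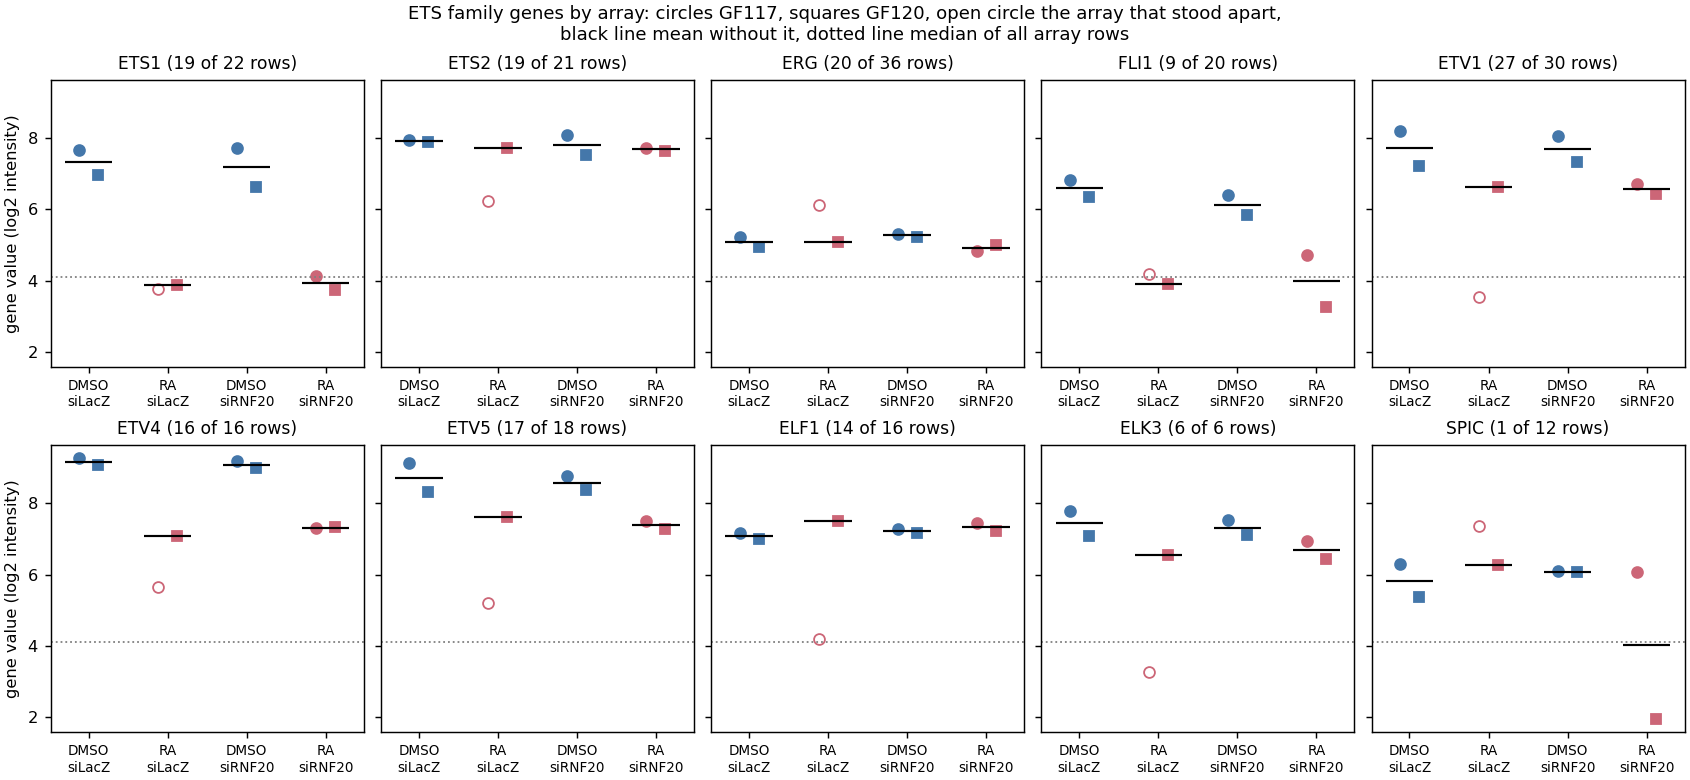
Gene values (log2 intensity, vertical axis) of the 10 ETS genes on each of 8 arrays, by group. Circles are GF117, squares GF120, the open circle is the array that stood apart, black lines are group means without it, and the dotted line is the median row. ETS1 drops to near the dotted line with RA in both backgrounds. FLI1 does so in RA siLacZ, while its RA siRNF20 arrays lie on either side of the line, at 4.73 and 3.25. ETV4 drops from 8.98 or more to 7.33 or less, and ETS2 stays between 7.52 and 8.09 on the 7 other arrays.

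ETS2, the closest relative of ETS1, showed no such pattern. It measured 7.95 and 7.89 in DMSO siLacZ, 7.73 in RA siLacZ, 8.09 and 7.52 in DMSO siRNF20 and 7.74 and 7.64 in RA siRNF20. The siRNF20 groups overlapped, and the single RA siLacZ array lay just below its DMSO arrays. The RA change was -0.19 in siLacZ cells (95% interval -0.78 to 0.40, adjusted p = 0.810) and -0.11 in siRNF20 cells (-0.59 to 0.37, adjusted p = 0.887). Adjusted p-values are those of limma after Benjamini-Hochberg adjustment over the 18732 genes, and a gene is said to fall or rise below 0.05.

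FLI1, which lies next to ETS1 on chromosome 11 with 0 protein-coding genes between them in the RefSeq annotation, was lower with RA in both backgrounds. It measured 6.83 and 6.36 in DMSO siLacZ and 3.90 in RA siLacZ, and 6.39 and 5.83 in DMSO siRNF20 against 4.73 and 3.25 in RA siRNF20. All 3 RA arrays lay below the 4 DMSO arrays. FLI1 fell 6.47-fold in siLacZ cells (log2 -2.69, SE 0.55, adjusted p = 0.0266) and 4.35-fold in siRNF20 cells (-2.12, SE 0.45, adjusted p = 0.0315).

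These FLI1 calls were not firm. Only 9 of its 20 rows were bright enough to be kept, 8 of which were lower in siLacZ cells and 9 in siRNF20 cells. A row bright only with DMSO could pass the filter, so these counts are no separate evidence of a decrease. The 11 dropped rows had median changes of -0.81 in siLacZ and -0.79 in siRNF20 cells. A single row stayed bright on all 8 arrays, between 9.45 and 10.7, with changes of 0.44 and -0.03, and was singled out after its values were seen. With every row kept the changes were -1.58 (adjusted p = 0.0518) and -0.94 (adjusted p = 0.143). The siLacZ call was lost without either DMSO siLacZ array (adjusted p = 0.149 without GF117 and 0.0747 without GF120). The siRNF20 call was lost without the GF117 (0.197) or GF120 (0.0565) array of DMSO siRNF20, the GF120 array of RA siRNF20 (0.0764), or the GF117 (0.0568) or GF120 (0.0578) array of DMSO siLacZ. Without an intensity trend neither passed (0.0631 and 0.0708), and the siRNF20 call was also lost with the mean over rows (0.0531) and with only the compared groups fitted (0.0580).

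ERG, the nearest relative of FLI1, lies next to ETS2 on chromosome 21 in the same way. It measured 5.22 and 4.96 in DMSO siLacZ, 5.07 in RA siLacZ, 5.32 and 5.24 in DMSO siRNF20 and 4.82 and 4.99 in RA siRNF20. Its RA arrays lay within the DMSO values in siLacZ cells and below them in siRNF20 cells. The changes were -0.02 (95% interval -0.73 to 0.70) and -0.37 (-0.96 to 0.21), with adjusted p = 0.991 and 0.602. Of the 2 neighbouring pairs within the 10 listed genes, FLI1 fell beside ETS1, which was chosen for its decrease, and neither ERG nor ETS2 passed the test.

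**Figure D2:**
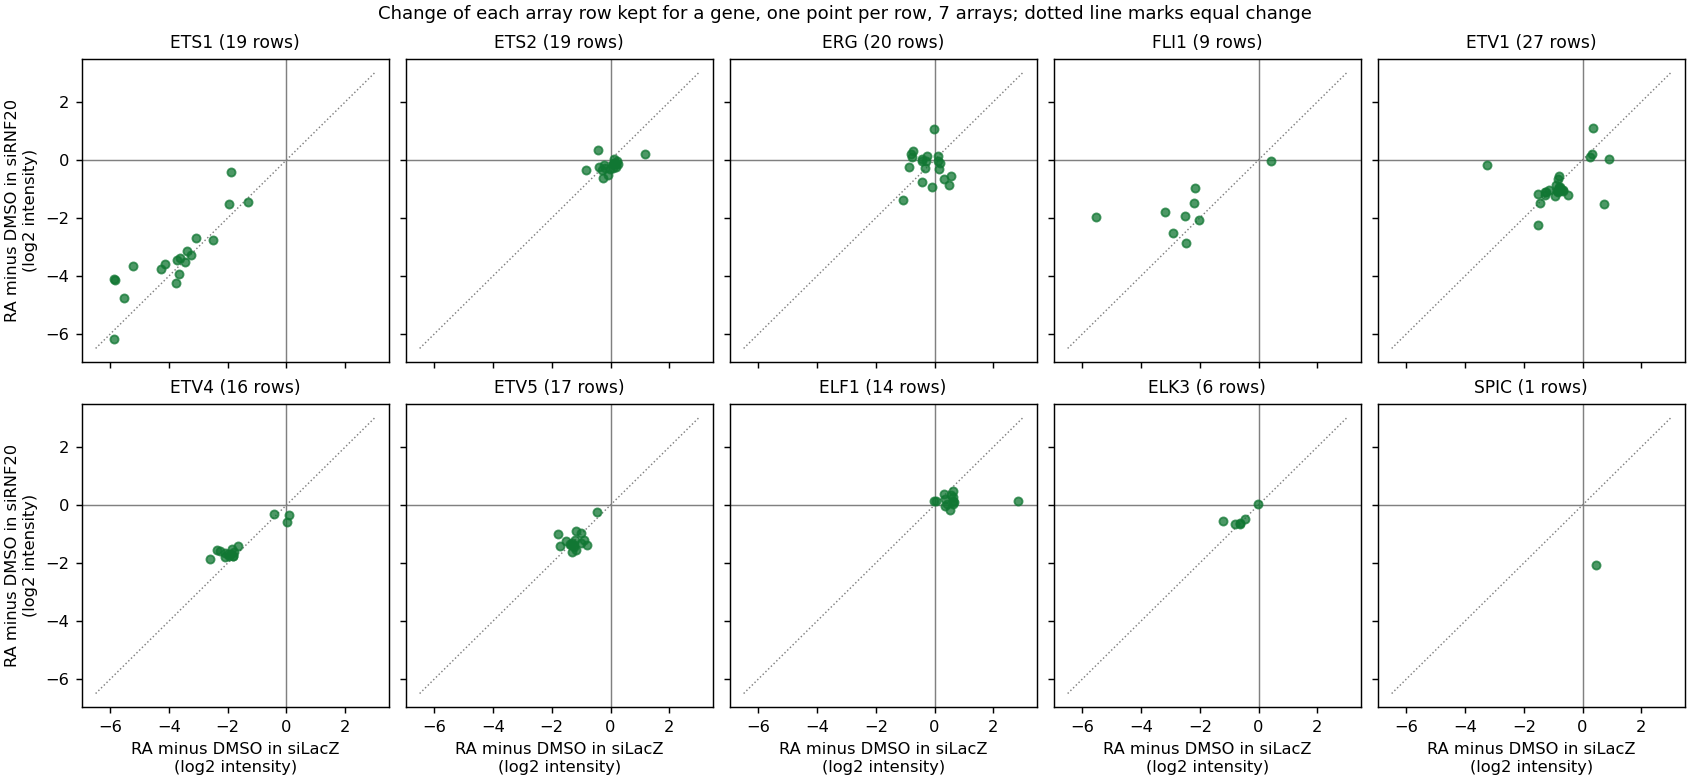
Each point is an array row kept for a gene, with its log2 change with RA in siLacZ cells (horizontal) and in siRNF20 cells (vertical), over 7 arrays. The dotted line marks equal change. The 19 rows of ETS1, the 17 of ETV5 and most of ETV4 lie in the lower left, and those of ETS2 and ERG lie around 0.

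Among the PEA3 group, ETV4 changed with the smallest error. It measured 9.27 and 9.07 in DMSO siLacZ, 7.07 in RA siLacZ, 9.19 and 8.98 in DMSO siRNF20 and 7.31 and 7.33 in RA siRNF20. The 4 DMSO arrays lay close together and well above the 3 RA arrays. ETV4 fell 4.29-fold in siLacZ cells (log2 -2.10, SE 0.21, adjusted p = 0.00065) and 3.41-fold in siRNF20 cells (-1.77, SE 0.17, adjusted p = 0.00044). All 16 of its rows were kept, and 14 and 16 of them were lower. The call was lost only with all 8 arrays (adjusted p = 0.440 in siLacZ cells), among the alternatives that were run.

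ETV5 moved in the same direction by less. It measured 9.13 and 8.32 in DMSO siLacZ, 7.60 in RA siLacZ, 8.78 and 8.38 in DMSO siRNF20 and 7.49 and 7.28 in RA siRNF20. Neither background had an overlap between RA and DMSO. ETV5 fell 2.28-fold in siRNF20 cells (log2 -1.19, SE 0.27, adjusted p = 0.0399), while in siLacZ cells the change of -1.12 (SE 0.33) did not pass (adjusted p = 0.106). Its 17 kept rows were all lower in both backgrounds. The siRNF20 call was lost without any 1 of the 4 siRNF20 arrays: adjusted p = 0.282 and 0.0716 without GF117 and GF120 of DMSO, and 0.0611 and 0.128 without GF117 and GF120 of RA. It was also lost without an intensity trend (adjusted p = 0.104). Without the GF120 array of DMSO siLacZ the siLacZ change was -1.52 and passed (adjusted p = 0.0423).

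ETV1 had changes of like size with more spread. It measured 8.20 and 7.23 in DMSO siLacZ, 6.64 in RA siLacZ, 8.05 and 7.32 in DMSO siRNF20 and 6.72 and 6.44 in RA siRNF20. The RA arrays were the lower ones in both backgrounds, but GF117 exceeded GF120 in both DMSO groups by more than the RA siRNF20 arrays differed. The changes of -1.08 (SE 0.41, adjusted p = 0.228) and -1.11 (SE 0.34, adjusted p = 0.124) did not pass. With the GF number as a replicate block the siRNF20 change of ETV1 was called, though the labels do not say that the numbers pair arrays. Of its 27 kept rows 22 and 23 were lower.

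ELK3 and ELF1, of the ternary complex and ELF groups, did not pass the test with RA. ELK3 measured 7.79 and 7.08 in DMSO siLacZ, 6.54 in RA siLacZ, 7.53 and 7.11 in DMSO siRNF20 and 6.95 and 6.44 in RA siRNF20. Its RA arrays lay below its DMSO arrays, with changes of -0.89 (95% interval -1.68 to -0.10, adjusted p = 0.242) and -0.62 (-1.27 to 0.02, adjusted p = 0.349). With the GF number as a replicate block the siRNF20 change of ELK3 was called. ELF1 measured 7.17 and 6.997 in DMSO siLacZ, 7.49 in RA siLacZ, 7.28 and 7.16 in DMSO siRNF20 and 7.45 and 7.21 in RA siRNF20. Its changes were 0.41 (-0.12 to 0.94, adjusted p = 0.457) and 0.11 (-0.32 to 0.54, adjusted p = 0.871), and the siRNF20 groups overlapped.

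SPIC had 1 usable row of 12. It measured 6.30 and 5.36 in DMSO siLacZ, 6.28 in RA siLacZ, 6.09 and 6.06 in DMSO siRNF20 and 6.07 and 1.95 in RA siRNF20. The last value stands alone. It made the siRNF20 change in RA, -2.26, the lowest of all 18732 genes (95% interval -5.01 to 0.49), and the RA change in siRNF20 cells -2.06 (adjusted p = 0.378). Without the GF117 array of RA siRNF20 that change was -4.12 and passed (adjusted p = 0.000719), on this 1 value of 1 row. In siLacZ cells the RA change was 0.45 (adjusted p = 0.916).

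Of the 9 genes other than ETS1, 2 fell (FLI1 and ETV4) and 0 rose with RA in siLacZ cells, where 2.03% of all genes fell, 1.88% rose and 3.91% changed either way. In siRNF20 cells 3 fell (FLI1, ETV4 and ETV5) and 0 rose, where 2.13% of all genes fell, 1.79% rose and 3.92% changed. Their median change was -0.89 in siLacZ and -1.11 in siRNF20 cells, against -0.05 and -0.03 over all genes. With all 8 arrays 0 of 18747 genes (0%) were called in each of the 5 comparisons. An unadjusted p below 0.05 (limma) was seen for 1510 and 504 genes with RA in siLacZ and siRNF20 cells. It was seen for 27 and 560 with siRNF20 in DMSO and RA, and for 113 in the difference. These counts were not set against the number expected with no change. No other tool was run.

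The 18 other human ETS genes were mostly within their error. In siLacZ cells 0 of 18 passed (limma, 3 at an unadjusted p below 0.05), with a median change of -0.14. In siRNF20 cells 1 rose and 0 fell, with a median of 0.00. The gene that rose was ELF3, an epithelial ETS factor, at 5.30 and 5.58 in DMSO siRNF20 and 6.34 and 6.54 in RA siRNF20. Its change was 1.00 (SE 0.23, adjusted p = 0.0437). That call was lost without any 1 of the 7 arrays (adjusted p = 0.0514 to 0.328), and with all rows kept the change was 0.30.

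**Figure D3:**
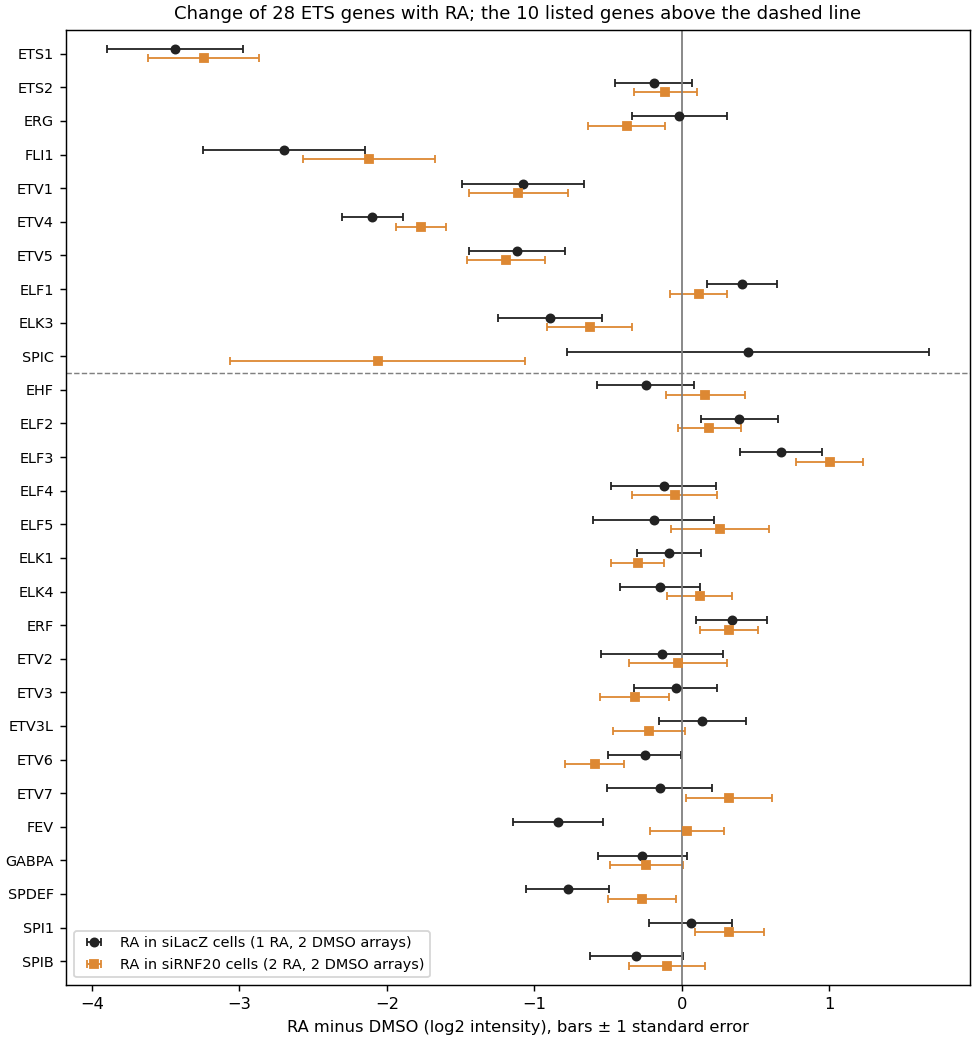
Log2 change with RA (horizontal axis, bars of 1 standard error) of 28 ETS genes in siLacZ cells (black circles) and siRNF20 cells (orange squares), 7 arrays, with the 10 listed genes above the dashed line. ETS1, FLI1 and ETV4 lie furthest to the left in siLacZ cells, and below the line most genes lie near 0.

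Depleting RNF20 was compared next, to ask whether it shifts the ETS genes or their response to RA. In DMSO 0 of 10 listed genes passed (limma, 0 at an unadjusted p below 0.05), where 0 of all genes passed (0%) and 519 had an unadjusted p below 0.05. In RA 0 of 10 passed (0 at an unadjusted p below 0.05), where 2 of all genes did (0.0107%). The difference between the RA responses passed in 0 of the 9 genes other than ETS1 (0 at an unadjusted p below 0.05) and in 0% of all genes, of which 737 had an unadjusted p below 0.05.

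ETS1 with siRNF20 differed by -0.14 in DMSO (95% interval -0.98 to 0.70) and by 0.05 in RA (-0.98 to 1.08). Its RA response in siRNF20 minus that in siLacZ cells was 0.19 (SE 0.59), with no test, since ETS1 was chosen for a strong decrease in both. The response of ETV4 was bounded more closely, with a difference of 0.33 (-0.27 to 0.93). For ETV5 the difference was -0.07 (-1.01 to 0.87), for ETV1 -0.03 (-1.23 to 1.17) and for FLI1 0.57 (-1.02 to 2.17). ETS2 (0.08, -0.68 to 0.84), ELK3 (0.27, -0.75 to 1.29), ELF1 (-0.29, -0.98 to 0.39) and ERG (-0.36, -1.28 to 0.57) also had intervals across 0. SPIC had the widest, -2.51 (-6.06 to 1.04), on its 1 row. The siRNF20 comparison in RA and the siLacZ response share the single RA siLacZ array.

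Because the PEA3 group is read as an output of FGF and ERK signalling, 15 other genes known to answer to ERK were set beside it. In siLacZ cells 6 of them fell and 1 rose, and in siRNF20 cells 7 fell and 1 rose, with median changes of -0.72 and -0.82. Of all genes 2.03% fell and 1.88% rose in siLacZ cells, and 2.13% fell and 1.79% rose in siRNF20 cells. SPRY4, a Sprouty inhibitor of receptor tyrosine kinase signals, fell by 2.90 (SE 0.32, adjusted p = 0.00104) and by 2.82 (SE 0.26, adjusted p = 0.00037) on the log2 scale. SPRY2, of the same family, fell by 2.71 and 1.87, PHLDA1 by 2.71 and 2.03, and CCND1, the cyclin of the G1 phase, by 1.81 and 1.47. Of the other calls in this list, IL17RD in siLacZ cells did not hold when GF117 of DMSO siLacZ was dropped (adjusted p = 0.0567), nor EPHA4 in siLacZ cells without any 1 DMSO array (0.0610 to 0.172) or SPRY1 in siRNF20 cells without the GF117 DMSO siRNF20 array (0.0734).

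DUSP6, the phosphatase that inactivates ERK and a common readout of FGF signals, went the other way. It measured 8.03 and 6.62 in DMSO siLacZ and 10.1 in RA siLacZ, and 7.98 and 6.89 in DMSO siRNF20 against 10.3 and 10.2 in RA siRNF20. DUSP6 rose by 2.77 (SE 0.54, adjusted p = 0.0216) and by 2.84 (SE 0.44, adjusted p = 0.00618). In siLacZ cells its call was lost without the GF120 DMSO array (2.07, adjusted p = 0.0613), with the mean over rows (0.0603) and without an intensity trend (0.0710), and with the RA array that stood apart, where it measured 7.01, in place of the GF120 one the change was -0.32.

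Of the FGF, RAS and ERK chain itself 15 of 20 genes had a value. In siLacZ cells 3 fell (FGF2 by 1.46, FGF4 by 1.45 and the kinase gene MAP2K1 by 0.87) and 0 rose, and in siRNF20 cells FGF2 alone fell, by 0.89, and 0 rose. The FGF4 call was lost without the GF120 array of DMSO siLacZ (adjusted p = 0.0982), and that of MAP2K1 without the GF117 array (0.127) or the GF120 array (0.161) of DMSO siLacZ and the GF117 (0.0892) or GF120 (0.0908) array of DMSO siRNF20. FGF2 in siRNF20 cells was not called without any 1 of the 4 siRNF20 arrays (adjusted p = 0.0503 to 0.124). Of 13 immediate early genes MYC fell in both backgrounds, by 2.67 and 2.06, and FOS in siRNF20 cells, by 1.87, which was lost without the GF117 array of DMSO siRNF20 (adjusted p = 0.0830). Of 9 genes for ETS partners and regulators (SRF, the MRTF and GABPB cofactors, COP1, DET1 and 2 acetyltransferases) 0 passed in either background (limma, 0 and 1 at an unadjusted p below 0.05).

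**Figure D4:**
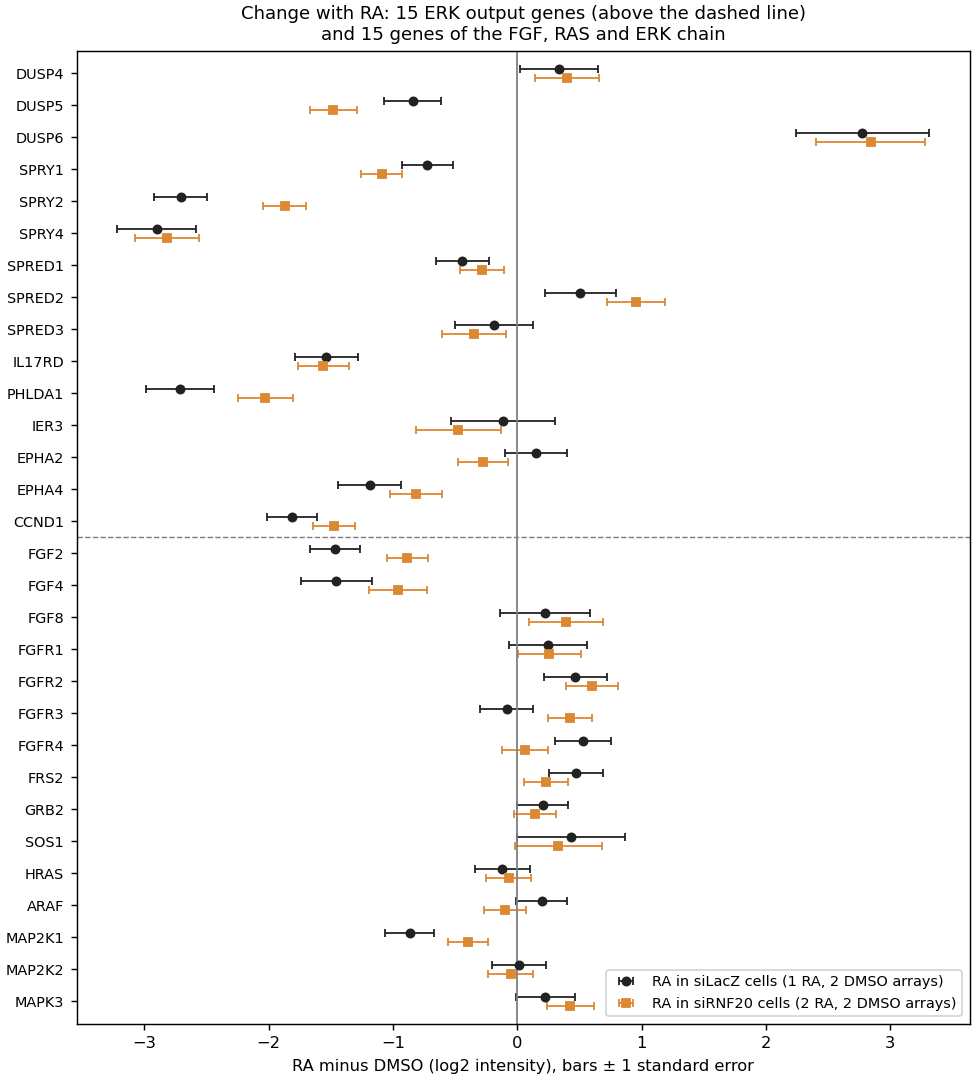
Log2 change with RA (horizontal axis, bars of 1 standard error) of 15 genes that answer to ERK (above the dashed line) and 15 genes of the FGF, RAS and ERK chain, in siLacZ cells (black circles) and siRNF20 cells (orange squares), 7 arrays. SPRY4, SPRY2 and PHLDA1 lie furthest to the left and DUSP6 lies alone on the right, at 2.77 and 2.84.

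Genes often named as ETS targets in invasion and in blood vessels were read in the same way. Of 13 protease and invasion genes 0 passed in siLacZ cells (limma, 1 at an unadjusted p below 0.05), and in siRNF20 cells PLAU, the urokinase, fell by 1.13. The PLAU call was lost without the GF117 (adjusted p = 0.0893) or GF120 (0.122) array of DMSO siRNF20 or the GF117 array of RA siRNF20 (0.0568). Of 19 endothelial genes 1 fell and 1 rose in each background. KDR, the VEGF receptor, fell by 3.05 and 3.39, and CDH5, the cadherin of endothelial junctions, rose by 2.87 and 2.53. CDH5 measured 3.86 to 4.25 on the 4 DMSO arrays and 6.27 to 6.99 on the 3 RA arrays, but 4.46 on the RA array that stood apart.

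The summed intensity of those 19 endothelial genes lay between 1122 and 1400.2 on the DMSO arrays and between 1120.2 and 1197 on the RA arrays, with 0 to 2 genes below the array's median row. The 15 haematopoietic markers with a value, of 16, summed to 654 to 808 with DMSO and 677 to 874 with RA, and 0 passed in either background (limma, 0 at an unadjusted p below 0.05). The 6 mesenchymal markers with a value, of 7, summed to 489 to 559 and 413 to 479. COL1A1 rose by 1.30 in siLacZ cells (not without the GF117 or GF120 DMSO siLacZ array, adjusted p = 0.0724 and 0.142, or the GF117 DMSO siRNF20 array, 0.0503). THY1 fell by 1.44 (not without the GF117 DMSO siLacZ array, 0.0589) and 1.34. The 11 neuronal markers summed to 877 to 1379 and 1329 to 1631, with DCX higher by 2.55 and 1.55 and MAP2 by 1.32 in siRNF20 cells, the last not without the GF117 array of DMSO (0.112) or RA (0.0519) siRNF20. Of these 11 markers, 5 had a change below 0 in siLacZ cells and 5 in siRNF20 cells, down to -0.58 and -0.78. The median changes of the 11 were 0.07 and 0.39. With the array that stood apart in place of the GF120 array of RA siLacZ, the DCX change was -1.03.

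Some stem cell markers were lower on the same arrays as ETS1, FLI1 and ETV4. Of the 10 markers 6 fell in siLacZ cells (2.03% of all genes) and 5 in siRNF20 cells (2.13%), while PODXL, SALL4, LIN28A and LIN28B passed in neither. Those that fell were led by NANOG (by 3.82 and 2.76), CRIPTO (by 3.26 and 2.02), L1TD1 (by 2.57 and 2.54), POU5F1 (by 1.83 and 2.46) and DNMT3B (by 1.65 and 1.16). POU5F1 was not called in siLacZ cells without the GF117 (adjusted p = 0.164) or GF120 (0.113) array of DMSO siLacZ, nor SOX2 without any 1 DMSO array (0.0771 to 0.123). Pseudogene copies of NANOG, CRIPTO and POU5F1 may add to their signal. The part of these decreases, or of the changes in neuronal markers, in the ETS changes was not tested.

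Genes whose pattern was most like that of ETS1 were found over the same 7 arrays, as those with the smallest root mean square difference from ETS1 after each gene was centred on its own mean. The 6 nearest were KDR (0.31), SPRY4 (0.36), the sulfotransferase gene CHST4 (0.38), PMAIP1 (0.41), which encodes the death-promoting protein NOXA, TM4SF18 (0.43) and the RNA polymerase III subunit gene POLR3G (0.45), against a median of 1.68 over all genes. KDR measured 7.24 and 6.67 in DMSO siLacZ, 3.90 in RA siLacZ, 7.33 and 7.18 in DMSO siRNF20 and 4.04 and 3.69 in RA siRNF20. SPRY4 measured 8.25 and 7.55, 5.001, 8.21 and 7.94, and 5.35 and 5.17 in the same order. The 6 genes had changes of -2.78 to -3.05 with RA in siLacZ cells and -2.61 to -3.39 in siRNF20 cells, which the choice by likeness to ETS1 fixes.

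**Figure D5:**
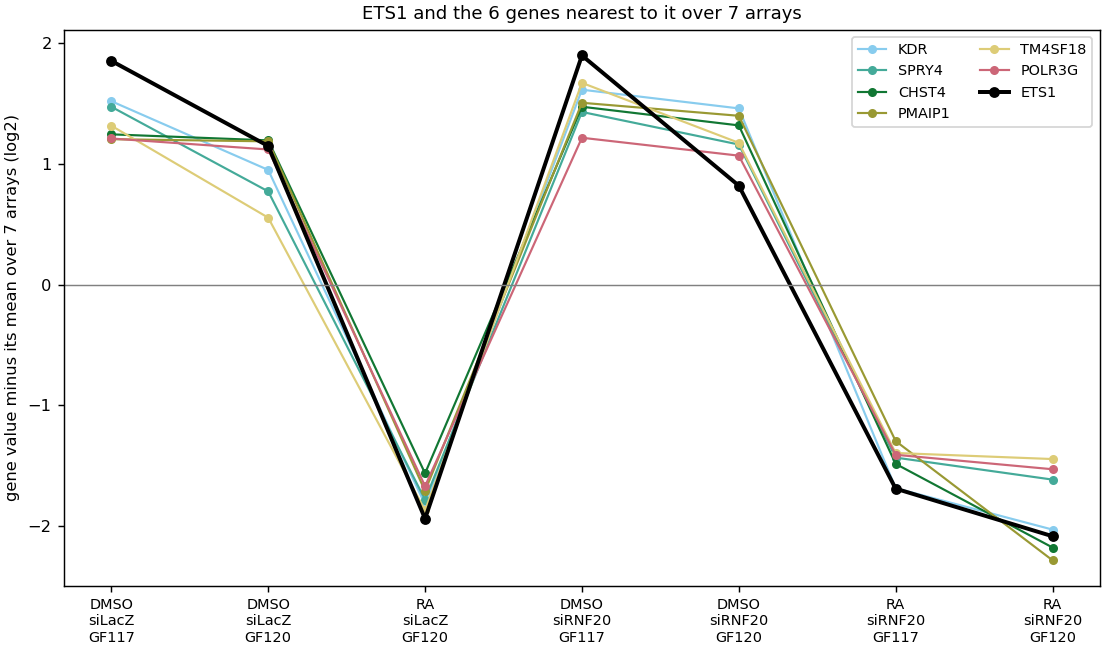
Gene value minus the gene's own mean (log2, vertical axis) of ETS1 (black) and the 6 genes nearest to it, on 7 arrays (horizontal axis). All 7 lines lie above 0 on the 4 DMSO arrays and below 0 on the 3 RA arrays, and ETS1 differs more between GF117 and GF120 with DMSO than CHST4 or POLR3G do.

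Start regions of KDR and SPRY4, the genes nearest to ETS1, and of ETV1, a listed gene, are shown because an ETS protein would read them through GGAA. They are the 250 bases before a RefSeq transcript start, build GRCh38.p14, all on the minus strand and written 5′ to 3′, with GGAA and its complement TTCC in capitals. KDR is at chr4:55125596-55125845, SPRY4 at chr5:142324248-142324497 and ETV1, which has several starts, at chr7:13990703-13990952.
KDR: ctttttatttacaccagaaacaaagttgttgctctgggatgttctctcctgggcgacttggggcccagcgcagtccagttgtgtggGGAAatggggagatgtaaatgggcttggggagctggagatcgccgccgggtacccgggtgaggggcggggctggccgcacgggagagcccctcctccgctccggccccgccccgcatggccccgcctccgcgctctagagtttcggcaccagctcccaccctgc
SPRY4: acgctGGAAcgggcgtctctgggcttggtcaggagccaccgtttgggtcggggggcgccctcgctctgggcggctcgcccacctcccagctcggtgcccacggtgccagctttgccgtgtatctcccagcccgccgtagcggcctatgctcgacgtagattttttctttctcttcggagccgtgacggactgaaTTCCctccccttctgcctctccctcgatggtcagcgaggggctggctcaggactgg
ETV1: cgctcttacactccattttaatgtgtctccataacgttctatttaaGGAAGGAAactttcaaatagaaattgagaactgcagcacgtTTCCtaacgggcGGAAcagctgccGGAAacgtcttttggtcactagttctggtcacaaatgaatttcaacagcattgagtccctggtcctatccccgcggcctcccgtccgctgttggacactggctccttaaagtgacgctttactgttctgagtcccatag
KDR holds GGAA 1 time, SPRY4 2 times and ETV1 5 times, counting both strands. GGAA occurs in 92.7% of 35116 start regions of this length, with a median of 3, so its presence sets none of them apart. The longer form CCGGAA, which contains GGAA, is found in 14.5% of them and 1 time in the ETV1 region shown. The other ETV1 start regions hold GGAA 3 to 5 times, and some of them hold no CCGGAA. A match is a string of letters and no measure of binding.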

How the data were processed

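The deposited values are linear intensities, 1 per array row and array, made by the authors; their background correction and normalization are not given in the sources used here. RNA was extracted with a silica column kit and labelled by the array maker's protocol, per the labels' protocols. Each array has 1384231 rows, of which 354600 were listed with 1 gene symbol and used, and 14898 with several were left out. Symbols were updated through RefSeq synonyms. Values were taken on the log2 scale without further normalization. Rows with a mean at or below the median row were dropped as dim, and a gene's value is the median of its kept rows.

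limma 3.58.1 in R 4.3.3 (with version 1.17.8 of data.table) fitted 4 group means to 7 arrays, with an intensity trend, 2-sided, with Benjamini-Hochberg adjustment over 18732 genes and 3 residual degrees of freedom among arrays. Figures used Python 3.11.15 and matplotlib 3.10.9. Arrays have no depth in counts, and precision is limited by how many there are, among other things. It also differed between genes on the same arrays, with an SE of 0.17 for ETV4 and 1.00 for SPIC with RA in siRNF20 cells. With 2 arrays against 2 an exact permutation test cannot go below p = 0.333.

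The 10 genes, the lists of other genes and the alternatives were chosen with earlier results of these data known. Genes were named by rule: the 10 genes and RNF20 always, other ETS genes if called, up to 5 called members with the largest change of each further list, and the 6 genes nearest to ETS1. The other lists were the FGF, RAS and ERK chain, genes that answer to ERK, immediate early genes, ETS partners and regulators, protease and invasion genes, and endothelial, haematopoietic, neuronal, mesenchymal and stem cell markers. The numbers GF117 and GF120 were not taken to pair arrays, since the labels do not say what they mark. Alternatives changed the arrays, the offset, the row filter and summary, the normalization, the variance trend, the groups fitted and the block.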

Additional observations from a re-analysis of the deposited data

How the results depend on the processing

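ETS1 kept its lower value with RA in both backgrounds under every alternative run, and so did FLI1, ETV1, ETV4, ETV5 and ELK3. ETS1 was chosen for this decrease and the alternatives use the same arrays, so this is no separate evidence of it. In siLacZ cells, alternatives with the array that stood apart add nothing, since ELF1 and ELK3 were also low on it. For ETS1 the RA changes moved beyond its spread between arrays (SD 0.55) only with the offset of 16, which damps low intensities by construction. Groups of 2 arrays limit every comparison, and RA levels near the median row limit the folds of ETS1 and FLI1. Comparing only the groups of a comparison was not run for the difference between the RA responses, which needs all 4 groups.

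Counts of genes called depended on the arrays. When the GF120 array of RA siLacZ was left out, the array that stood apart was the only one of RA siLacZ. The highest leave-out counts in the comparisons with RA siLacZ, the difference included, rest on that array and say nothing of RA or RNF20. With RA in siLacZ cells 733 genes were called, against 0 with all 8 arrays, 456 without an intensity trend and 317 to 13323 when 1 array was left out; the last count rests on the array that stood apart as the only one of RA siLacZ. In siRNF20 cells 734 were called, against 0 with all 8 arrays and 324 to 721 when 1 was left out (lowest without the GF117 array of DMSO siRNF20). For siRNF20 in DMSO the count was 0, and 0 to 1 when 1 array was left out. For siRNF20 in RA it was 2, against 0 with all 8 arrays, the offset, the mean over rows, no filter, the stricter filter or quantile normalization, 1 without an intensity trend, 12 with only the compared groups and 0 to 12835 when 1 was left out. For the difference it was 0, and 0 to 11416 when 1 was left out.

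With the GF number as a replicate block, 1792, 1959, 1, 232 and 4 genes were called in the comparisons of RA in siLacZ cells, RA in siRNF20 cells, siRNF20 in DMSO, siRNF20 in RA and the difference. The labels do not say whether the numbers pair the arrays. Deviations of same-numbered arrays from their group means correlated positively, at 0.297 to 0.364, among the 3 groups without the array that stood apart. With RA siLacZ, which holds that array, they correlated at -0.390 to -0.071. Whether the numbers mark an effect shared between groups was not tested, and the main fit makes no allowance for one. With the block ETV5 in siLacZ cells (-0.88, adjusted p = 0.0223) and ETV1 (-1.11, adjusted p = 0.00229) and ELK3 (-0.62, adjusted p = 0.0289) in siRNF20 cells were called, and the block reversed ERG with RA in siLacZ cells (0.014), siRNF20 in RA for ELK3 (-0.12), ETS1 (-0.31) and FLI1 (-0.33), and the difference for ELK3 (-0.0051), ETS1 (-0.17) and ETS2 (-0.045).

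Other reversals concerned changes that were not called. All 8 arrays reversed RA in siLacZ cells for ELF1 (-1.25) and ERG (0.60), siRNF20 in RA for ELF1 (1.49), ETS2 (0.70), ETV1 (1.51), ETV5 (0.99) and FLI1 (-0.050), and the difference for ELF1 (1.36), ETV1 (1.62) and ETV5 (1.13), by bringing in the array that stood apart. The stricter filter reversed ERG with RA (0.010 in siLacZ and 0.34 in siRNF20 cells), siRNF20 in DMSO for ELF1 (-0.10), siRNF20 in RA for ERG (0.47) and ETV1 (0.028), and the difference for ERG (0.33), ETS2 (-0.012) and ETV1 (0.28). The mean over rows reversed siRNF20 in RA for ERG (0.10) and the difference for ERG (0.018) and ETS2 (-0.17), and no filter reversed ERG for siRNF20 in DMSO (-0.0088) and in RA (0.30) and for the difference (0.31). The cause was not tested.

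When the GF120 array of RA siLacZ was left out, the array that stood apart took its place. Some far ends in comparisons with RA siLacZ, such as -2.90 for ELF1, rest on that array and say nothing of RA or RNF20. With this swap included, leaving out 1 array at a time gave ranges across 0 as follows. With RA in siLacZ cells they were -2.90 to 0.50 for ELF1, -0.15 to 1.18 for ERG and -0.022 to 1.53 for SPIC, and in siRNF20 cells -0.0073 to 0.23 for ELF1 and -0.40 to 0.17 for ETS2. For siRNF20 in DMSO they were -0.47 to 0.24 for ELK3, -0.68 to 0.40 for ETS1, -0.40 to 0.17 for ETS2, -0.51 to 0.37 for ETV1, -0.19 to 0.020 for ETV4, -0.55 to 0.25 for ETV5 and -0.22 to 0.72 for SPIC. For siRNF20 in RA they were -0.28 to 3.14 for ELF1, -0.10 to 3.44 for ELK3, -0.15 to 0.25 for ETS1, -0.089 to 1.45 for ETS2, -0.20 to 2.998 for ETV1, -0.33 to 2.19 for ETV5 and -0.65 to 0.83 for FLI1. For the difference they were -0.41 to 3.01 for ELF1, -0.082 to 3.56 for ELK3, -0.35 to 0.73 for ETS1, -0.21 to 1.56 for ETS2, -0.35 to 3.11 for ETV1, -0.47 to 2.34 for ETV5 and -0.17 to 1.32 for FLI1.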
